A study of Homo sapiens with 12 samples.

Results

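ECEL1 and 8 other genes, grouped as neuroendocrine surface peptidases, were followed in EndoC-βH3 cells that were or were not driven into senescence. The group includes DPP6, which has lost its peptidase activity, and RNA does not show which proteins are on the surface of these cells. The 9 genes were taken by symbol from a table of 35337 gene rows: ECEL1, ECE1, ECE2, MME, DPP4, DPP6, ENPEP, ANPEP and ACE. ECEL1 was selected on the values of the comparison described here (its rise in senescent libraries), so its difference between the groups is given as a description without a test. The other 8 were added for their function, with earlier results of these data known, and are read from a fit over the whole table. Of the 9, 6 averaged 5 normalised read counts or more and entered that fit, as did 13847 genes in all. ECEL1 passed this filter only through its senescent libraries, and ECE2, ENPEP and ANPEP stayed below it.

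EndoC-βH3 is a beta-like line made from human fetal pancreas, immortalised with telomerase (hTERT) and SV40 large T antigen, and it carries a CreER recombinase that removes the immortalising genes once 4-hydroxy-tamoxifen (4-OHT) is added. The labels give the genotype as WT and name 2 conditions. The senescent cells (6 libraries) had 3 weeks of 4-OHT and the non-senescent controls (6 libraries) had none, so the effect of the drug and that of removing the immortalising genes cannot be told apart. The sources state the concentration of 4-OHT in different units and it is not given here. Both groups are 1 line from 1 source, and the titles split the libraries into batch A with 2 per group and batch B with 4 per group. RNA was read from the 3′ end by CEL-seq, named CEL-seq2 in the study's methods. No source used here says whether libraries of a group came from separate cultures, so p-values measure the spread between these libraries, which may be technical.

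Some peptide hormones and neuropeptides can be switched on or off by enzymes that sit in the plasma membrane with their active site outside the cell. Endothelin-converting enzymes and neprilysin (MME) are zinc peptidases of one family, and ECEL1 is the member of that family found mostly in neurons, where it is known for its induction after nerve injury and has no established substrate. Dipeptidyl peptidase 4 (DPP4) clips incretin hormones, angiotensin-converting enzyme (ACE) makes angiotensin II and breaks down bradykinin, and aminopeptidases A (ENPEP) and N (ANPEP) trim single residues from peptide ends. DPP6 resembles DPP4 but has lost its enzymatic activity and serves as a subunit of Kv4 potassium channels.

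The coding sequence shows what the members share and where they part. The windows below were read from GENCODE v44 transcripts on GRCh38, with the 5 codons of the zinc-binding motif HEXXH in capitals for the endothelin-converting enzyme group, and with the serine codon of DPP4 and the codon aligned with it in DPP6 in capitals for the DPP pair.
ECEL1 (chr2:232481786-232481824, minus strand, exon 13 of 18): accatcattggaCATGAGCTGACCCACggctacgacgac
ECE1 (chr1:21227163-21227201, minus strand, exon 16 of 19): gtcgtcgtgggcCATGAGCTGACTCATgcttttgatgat
ECE2 (chr3:184290818-184290856, plus strand, exon 16 of 19): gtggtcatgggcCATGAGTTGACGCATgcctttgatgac
MME (chr3:155166979-155167017, plus strand, exon 18 of 23): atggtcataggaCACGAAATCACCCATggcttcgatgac
DPP4 (chr2:162008641-162008661, minus strand, exon 22 of 26): TCAtatggagggtacgtaacc
DPP6 (chr7:154885633-154885653, plus strand, exon 22 of 26): GATtacggtggctacctgagc
The motif occurred once in the coding sequences of ECEL1, ECE1, ECE2, MME, ENPEP and ANPEP, at 2 places in that of ACE, and in neither DPP4 nor DPP6. DPP4 carries a serine codon at the site where DPP6 carries an aspartate codon. Translated and aligned, ECEL1 was 38.7% identical to ECE1 over 749 residues and 36.0% identical to MME over 728, and DPP4 was 34.3% identical to DPP6 over 741.

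The 12 libraries held 4672924 to 17106776 reads. Batch A was deeper, with 8873569 to 17106776 reads per library against 4672924 to 7063264 in batch B. The first principal component of the 13847 genes (57.6% of the variance) separated the batches and the next one (19.3%) the groups, so each member is given within its batch. Across all genes, 11.6% were called higher and 11.8% lower in senescent cells, where a call needs an adjusted p under 0.1 from limma and a fold change over 1.5. With every library scaled to the same total these shares became 8.85% and 15.1%, and the median log2 difference of all genes moved by -0.10, from 0.01 to -0.09. CDKN1A, the cell cycle inhibitor p21, ranged from 24.5 to 76.0 normalised read counts in non-senescent and from 133 to 1501 in senescent libraries. MKI67, a marker of dividing cells, ranged from 411 to 735 and from 63.7 to 88.4. All 10 beta cell markers of a fixed list were measured, with 5 higher and 1 lower, and INS averaged 19853 ± 8849 normalised read counts (SD, n = 6) in non-senescent and 99547 ± 60362 (SD, n = 6) in senescent libraries. The summed delta cell markers, chiefly somatostatin, ranged from 161018 to 288779 in non-senescent and from 115768 to 143657 in senescent libraries, with 4 of 5 lower and 1 higher, and of 6 alpha cell markers 2 were higher and 1 lower. In bulk RNA, fewer cells of a type and less RNA per cell cannot be told apart.

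ECEL1 (chr2:232479827-232487834, minus strand) was close to silent in non-senescent cells and present in every senescent library, and most of its reads came from batch B. Values are normalised read counts, which are reads divided by the size factor of the library. In batch A, the non-senescent libraries had 0.556 and 0 and the senescent ones 6.28 and 4.83. In batch B, the 4 non-senescent libraries had 0, 0, 1.46 and 1.24 and the senescent ones 110, 140, 151 and 128. Every senescent library lay above every non-senescent library, and every senescent library of batch B lay far above both of batch A.

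These values rest on 3 reads in all non-senescent libraries together, at most 1 in any, against 8 and 14 reads in the senescent libraries of batch A and 91 to 133 in those of batch B. A library without an ECEL1 read is compatible with up to 3 reads. For the libraries without one this is 2.38 normalised read counts in non-senescent A2, 4.52 in non-senescent B1 and 4.13 in non-senescent B2. Because of the few control reads, the ratio of senescent to non-senescent ECEL1 is only loosely bounded. Batch A gave a ratio of 17.3 (95% exact counting interval 2.80 to 715, from 22 and 1 reads) and batch B one of 191 (52.7 to 1584, from 459 and 2 reads). These intervals cover counting error only and are no test of the rise, on which ECEL1 was selected. On the scale of log2(normalised read count + 1) the difference was 5.08 over both batches, 2.39 within batch A and 6.43 within batch B. Ordered by mean, ECEL1 stood at 0.278 ± 0.393 (SD, n = 2) in non-senescent A, 0.676 ± 0.786 (n = 4) in non-senescent B, 5.56 ± 1.03 (n = 2) in senescent A and 132 ± 17.4 (n = 4) in senescent B. The control values of the batches overlapped, and each later step was larger than the spread on either side of it.

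**Figure D1:**
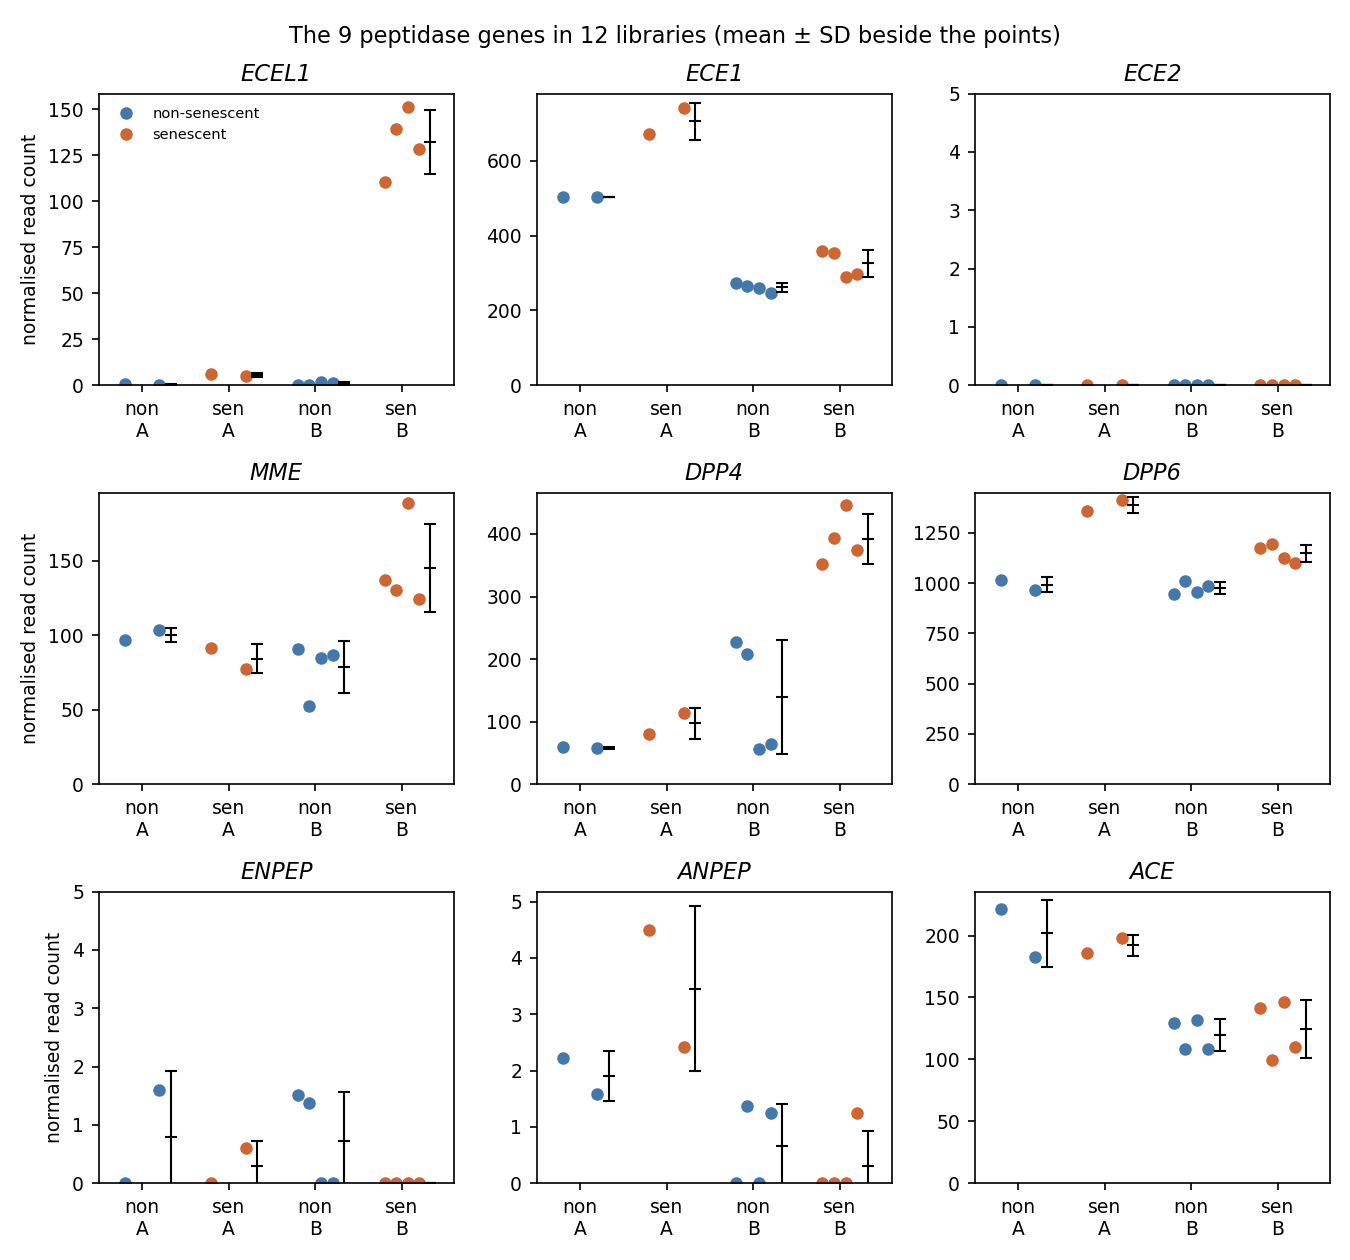
Normalised read counts (y axis, linear from 0, scaled per gene) of the 9 genes in non-senescent (blue) and senescent (orange) libraries of batches A and B, with the mean ± SD as a bar beside the points (n = 2 per group in A, 4 in B). ECEL1 reached 110 to 151 in the 4 senescent libraries of batch B and at most 6.28 elsewhere, and ECE2 was listed at 0 in all 12.

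A pseudogene of ECEL1 had reads of its own. ECEL1P2, annotated as a long non-coding RNA at chr2:232385750-232387044 on the same strand, 92782 bp from ECEL1, had 21 and 12 reads in the senescent libraries of batch A, more than ECEL1 had there. In batch B it had 1 read in senescent library B1 and none in the other 7 libraries, and in batch A the non-senescent libraries had 1 and 0. So the reads of the pair fell to ECEL1P2 more than to ECEL1 in senescent batch A and almost all to ECEL1 in senescent batch B. The summed pair gave a log2 difference of 3.35 in batch A, 6.44 in batch B and 5.41 over both, and the ratio in batch A became 21.7 (95% exact counting interval 5.72 to 183).

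How alike the pair is can be read from a stretch of 60 aligned bases, printed with the 5 differing bases in capitals. It lies in coding exon 2 of ECEL1 and in the single exon of a shorter ECEL1P2 transcript.
ECEL1 (chr2:232485869-232485928, minus strand): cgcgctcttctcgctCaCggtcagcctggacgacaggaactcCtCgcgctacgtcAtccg
ECEL1P2 (chr2:232386701-232386760, minus strand): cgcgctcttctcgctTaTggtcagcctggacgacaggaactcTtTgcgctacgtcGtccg
That ECEL1P2 transcript matched ECEL1 at 89.9% of 756 aligned bases. The longer ECEL1P2 transcript, of 1295 bases, aligned over 343 bases only (89.5% identical), with 951 of its own bases after the aligned part. For both transcripts the aligned part ended 1869 bases before the 3′ end of the ECEL1 transcript. In the last 500 bases of ECEL1 the best-scoring alignment to either ECEL1P2 transcript held 10 bases. Salmon divides reads among similar transcripts, and whether the split between the pair changed with the batch was not tested.

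**Figure D2:**
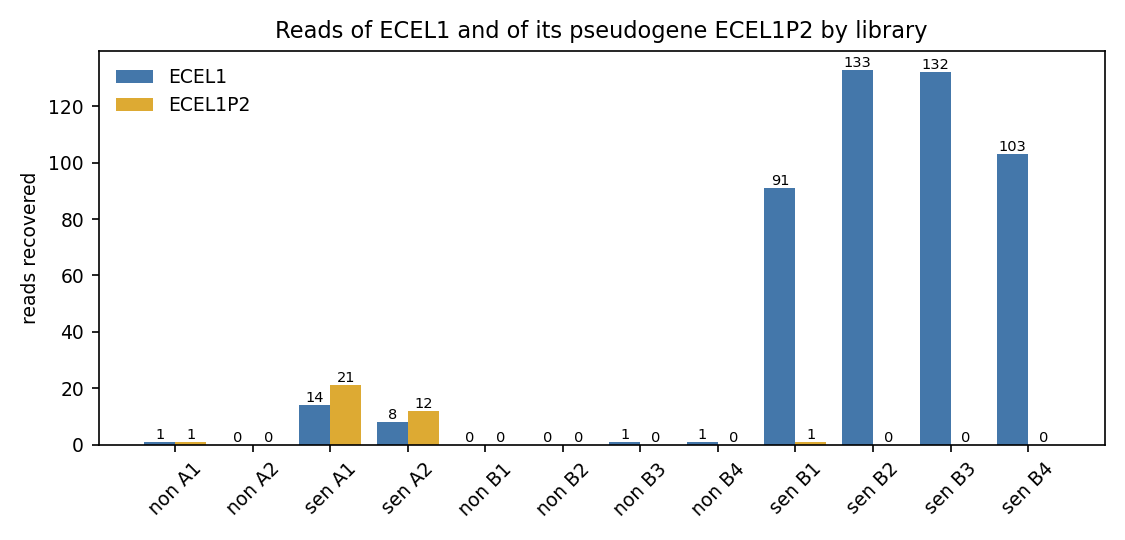
Reads (y axis, recovered whole reads, not scaled for depth) of ECEL1 (blue) and ECEL1P2 (yellow) in each library, with the number above each bar. ECEL1P2 had more reads than ECEL1 in senescent A1 (21 against 14) and senescent A2 (12 against 8), and 1 read or none in each library of batch B.

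Of the remaining zinc peptidases of the family, ECE1 was slightly higher, ECE2 was listed at 0 and MME depended on the batch. ECE1 (chr1:21217247-21345572, minus strand), which cuts big endothelin to endothelin, had 504 and 502 normalised read counts in the non-senescent libraries of batch A and 671 and 740 in the senescent ones. In batch B it had 274, 264, 260 and 247 in non-senescent and 360, 355, 290 and 298 in senescent libraries. The groups did not overlap within either batch, while batch A was higher than batch B in both groups. The difference was 0.37 ± 0.08 on the log2 scale (SE, adjusted p = 0.00212), a fold of 1.29 with a 95% interval of 1.14 to 1.46. ECE1 therefore passed the adjusted p but not the fold of 1.5, and the 2 batches gave log2 differences of 0.49 and 0.31. Its batch difference did not pass (interaction adjusted p = 0.679).

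ECE2, the homologue of ECE1 with a neuroendocrine distribution, was listed at 0 in all 12 libraries. The read-through gene EEF1AKMT4-ECE2, which overlaps it on the same strand, was also at 0. The annotation used for counting is not given, and whether these rows could receive reads was not tested. If they could, the depth allows up to 3 reads of each per library. No statement on a difference can be made.

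MME (chr3:155024124-155183704, plus strand), which encodes neprilysin, a membrane enzyme that degrades natriuretic peptides, enkephalins and other small peptides, went in opposite directions in the batches. In batch A the non-senescent libraries had 96.7 and 103 and the senescent ones 91.1 and 77.3, so both senescent libraries were the lower ones. In batch B the non-senescent libraries had 90.3, 52.3, 84.8 and 87.0 and the senescent ones 137, 130, 189 and 125, so all 4 senescent libraries were the higher ones. The log2 difference was -0.25 within batch A and 0.89 within batch B, and the difference between them, 1.14 ± 0.33 (SE), passed the interaction test (adjusted p = 0.0894). MME was the only 1 of the 5 members tested besides ECEL1 with such a batch difference, where 4.21% of all genes had one. Over both batches the difference was 0.51 ± 0.20 (SE, adjusted p = 0.0545), a fold of 1.42 with a 95% interval of 1.06 to 1.91, and it was not called.

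The MME result turned on single libraries and on the scaling. Leaving out non-senescent A1, non-senescent A2 or senescent A2 gave log2 differences of 0.59, 0.62 and 0.63 and made it a call, and so did batch B alone (adjusted p = 0.00260). Leaving out non-senescent B2, the library at 52.3, raised the adjusted p to 0.130, and leaving out senescent B3, the library at 189, raised it to 0.137. With every library scaled to the same total it was 0.129. The adjusted p of the batch difference was 0.101 with TMM factors and 0.144 without a filter on low values.

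The dipeptidyl peptidase pair was higher in senescent cells of both batches. DPP4 (chr2:161992245-162074394, minus strand), the drug target whose activity shortens the life of incretins, had 59.5 and 57.2 normalised read counts in the non-senescent libraries of batch A and 79.9 and 114 in the senescent ones. In batch B the non-senescent libraries had 227, 208, 57.0 and 64.6 and the senescent ones 353, 394, 446 and 374. The groups did not overlap within either batch, but among the non-senescent libraries of batch B, B1 and B2 lay far above B3 and B4, which were near the level of batch A. DPP4 rose by 1.40 ± 0.30 on the log2 scale (SE, adjusted p = 0.00139), a fold of 2.64 with a 95% interval of 1.70 to 4.12, and it was called higher. The log2 difference was 0.70 within batch A and 1.75 within batch B, and their difference did not pass the interaction test (adjusted p = 0.457).

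DPP6 (chr7:153748133-154894285, plus strand), the channel subunit without peptidase activity, was higher by a small margin. In batch A it had 1018 and 966 in non-senescent and 1361 and 1415 in senescent libraries. In batch B it had 947, 1010, 954 and 984 in non-senescent and 1173, 1193, 1124 and 1100 in senescent libraries. Every senescent library lay above every non-senescent one. The difference was 0.32 ± 0.06 (SE, adjusted p = 8.37e-04), a fold of 1.25 with a 95% interval of 1.13 to 1.37. It passed the adjusted p but stayed under the fold of 1.5, and the log2 differences were 0.48 within batch A and 0.24 within batch B (interaction adjusted p = 0.297).

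ACE (chr17:63477061-63498380, plus strand) showed no detectable difference. It had 221 and 183 in non-senescent and 186 and 198 in senescent libraries of batch A, and 130, 109, 132 and 108 in non-senescent and 142, 99.7, 147 and 110 in senescent libraries of batch B. The groups overlapped in both batches. The log2 difference was 0.01 ± 0.12 (SE, adjusted p = 0.967), and its 95% interval in folds was 0.841 to 1.20, which leaves out a change of 1.5-fold in either direction.

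Both aminopeptidases were near the limit of detection. ENPEP, which turns angiotensin II into angiotensin III, had 4 reads in the 6 non-senescent and 1 read in the 6 senescent libraries. ANPEP had 6 reads in the non-senescent and 14 in the senescent libraries of batch A, and 2 and 1 reads in batch B. In a fit without the filter their log2 differences were -0.54 ± 0.30 (SE, adjusted p = 0.244) and -0.01 ± 0.34 (SE, adjusted p = 0.981). A difference was not detectable at this depth for either gene.

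Counted together, 1 of the 5 members tested besides ECEL1 was called higher (DPP4), beside 11.6% of all genes tested, and none was called lower, beside 11.8%. The count of members called lower was also 0 with edgeR and with DESeq2, and 0 members were lower at an unadjusted p under 0.05 in limma. At an adjusted p under 0.1 without a limit on the fold, 4 of 5 were higher (ECE1, MME, DPP4 and DPP6), where 23.2% of all genes were. MME was higher in batch B only (log2 difference -0.25 in batch A), and at equal library totals its adjusted p from limma was 0.129. Groups that did not overlap and were higher in senescent cells in both batches were seen in 3 of 5 (ECE1, DPP4 and DPP6), where 11.9% of all genes had this pattern. The median log2 difference was 0.37 over the 5 members and 0.01 over all 13847 genes. A list of 5 chosen genes carries no test of its own, so these shares are descriptions.

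**Figure D3:**
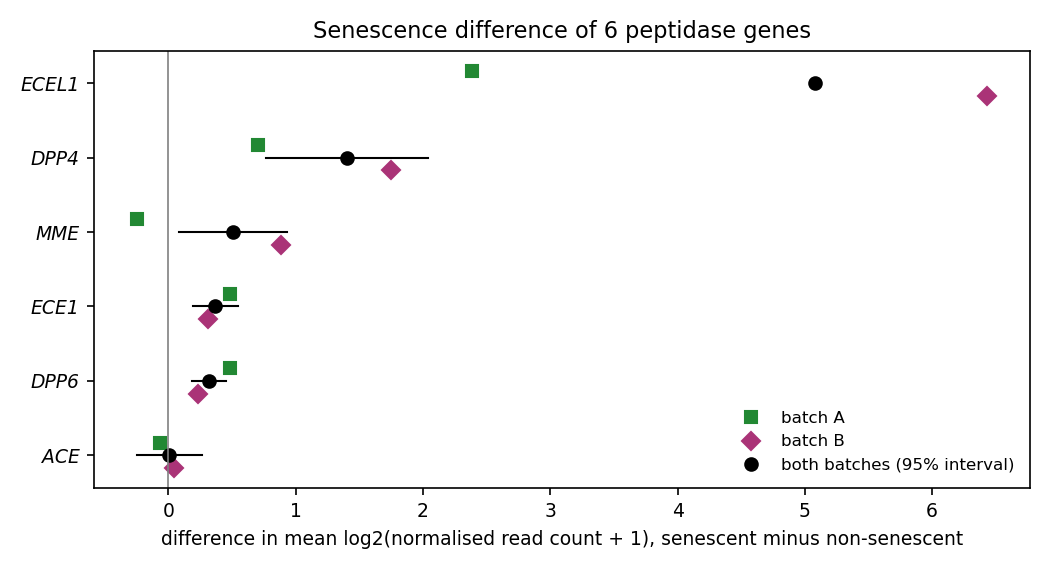
Difference of senescent from non-senescent cells in mean log2(normalised read count + 1) on the x axis for the 6 members above the filter, over both batches (circles), in batch A (squares) and in batch B (diamonds). Lines are 95% intervals from limma, left out for ECEL1, which was chosen for its rise. The batches lie on opposite sides of 0 for MME (-0.25 and 0.89) and for ACE (-0.07 and 0.05), whose interval includes 0.

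The genes nearest to ECEL1 by Pearson correlation over the 12 libraries shared its step between the batches. By Pearson correlation of log2 values among 11681 genes with a mean of at least 20, the nearest were CDKN1A (r = 0.989), PDZK1 (r = 0.978), ARRDC4 (r = 0.976), ASAH1 (r = 0.973) and VCP (r = 0.972). The 12 points share 2 groups and 2 batches, so the correlation describes this pattern and was not tested. CDKN1A averaged 28.9 in non-senescent A, 53.1 in non-senescent B, 133 in senescent A and 1404 in senescent B, the same order of the 4 conditions as ECEL1. PDZK1, a scaffold protein of membrane transporters, averaged 683, 624, 1059 and 2432 in that order. ARRDC4, an arrestin-like protein, averaged 80.8, 87.9, 125 and 225. ASAH1, the lysosomal acid ceramidase, averaged 484, 540, 631 and 965. VCP, a chaperone ATPase, averaged 712, 737, 808 and 916, a much smaller range. With Spearman's rho the 5 nearest genes were PRKCZ, ACO1, ANKRD65, BTBD17 and SLC25A12 and none was shared with the first 5. For ACO1 (0.84 in batch A and 0.89 in batch B), ANKRD65 (0.87 and 0.96) and SLC25A12 (1.16 and 1.04) the log2 differences were similar in both batches. They were larger in batch B for PRKCZ (0.77 and 1.52) and BTBD17 (1.25 and 1.73). Of the other members, MME had r = 0.79 with ECEL1, DPP4 0.76, DPP6 0.49, ECE1 -0.08 and ACE -0.29. By Spearman's rho the order changed, with 0.68 for DPP6, 0.65 for DPP4, 0.65 for MME, 0.16 for ECE1 and -0.08 for ACE.

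**Figure D4:**
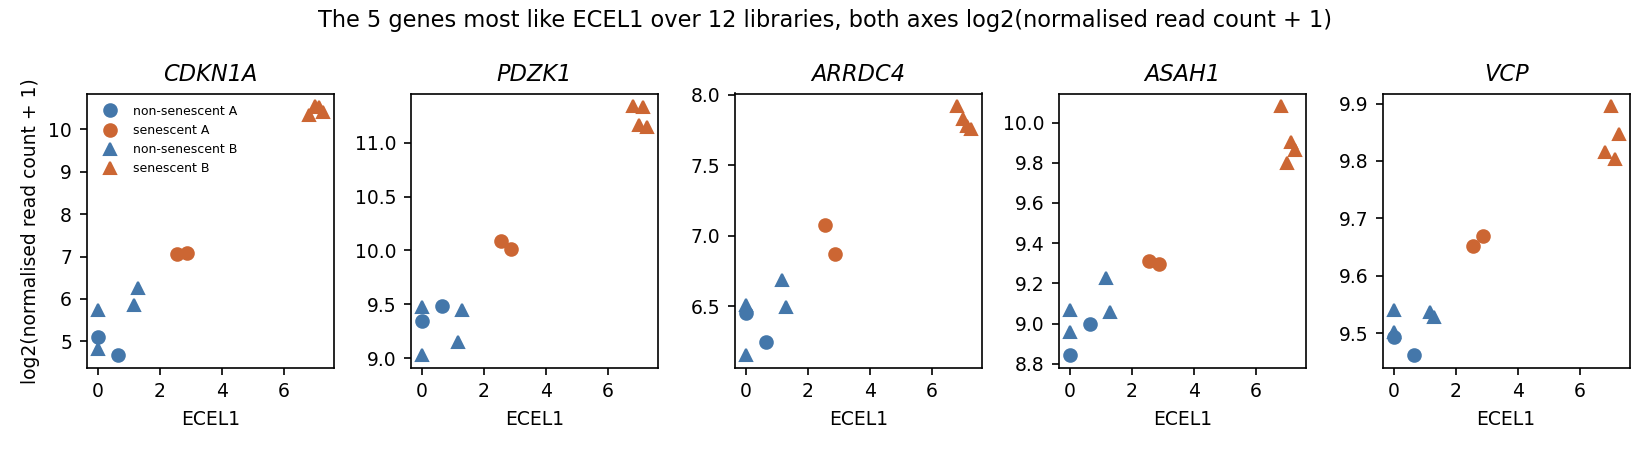
Log2(normalised read count + 1) of ECEL1 (x axis) against the same quantity for the 5 genes with the highest Pearson r (y axes, which do not start at 0), 1 point per library, with circles for batch A and triangles for batch B and senescent libraries in orange. In each panel the senescent libraries of batch A lie between the non-senescent libraries and the senescent libraries of batch B.

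Genes around the members were read from lists of relatives, substrates, receptors and partners. Of all genes tested, 11.6% were called higher and 11.8% lower. At an adjusted p under 0.1 without a limit on the fold, 23.2% were higher, and the share lower was not computed. The lists were not tested against these shares. Relatives by sequence come first. The other neprilysin family members MMEL1, PHEX and KEL were below the filter, with 0 of 3 tested. Of 8 dipeptidyl and prolyl peptidase relatives tested, 1 was called higher, PREPL, a prolyl endopeptidase-like serine hydrolase, which went from 259 ± 25.6 to 398 ± 41.0 (SD, n = 6 each) with a log2 difference of 0.62 ± 0.10 (SE, adjusted p = 7.11e-05). None was called lower by limma, edgeR or DESeq2. Without the limit on the fold, 4 of the 8 were higher (23.2% of all genes were) and 2 lower at an adjusted p under 0.1. The counts at an unadjusted p under 0.05 were the same. DPP10, the other inactive channel subunit of this family, had a log2 difference of 0.23 ± 0.10 (SE, adjusted p = 0.0753) and was not called.

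In 3 further lists of enzymes no gene was called in either direction by limma, edgeR or DESeq2. These were the 9 tested M1 aminopeptidase relatives, the 9 tested other neuropeptide-degrading peptidases and the 3 tested genes of the angiotensin system. Over all genes, limma called 11.6% higher and 11.8% lower. Without the limit on the fold, 23.2% of all genes were higher at an adjusted p under 0.1. By that measure limma put 2 of the 9 M1 relatives higher and 2 lower. It put 3 of the neuropeptide-degrading peptidases higher and 1 lower, and 1 gene of the angiotensin system higher and 0 lower. The counts at an unadjusted p under 0.05 were the same in these 3 lists. Among the M1 relatives, LNPEP had a log2 difference of 0.54 (adjusted p = 0.00968) and AOPEP one of -0.46 (adjusted p = 1.39e-04). Within the last list, angiotensinogen (AGT) had a log2 difference of -3.76 in batch A and of 0.81 in batch B, and the batches differed by the interaction test (adjusted p = 3.83e-04).

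Among the ligands, endothelin 3 (EDN3) was the only endothelin gene above the filter. It averaged 16.9 ± 9.71 in non-senescent and 3.03 ± 2.71 in senescent libraries (SD, n = 6 each). EDN3 passed the filter only through its non-senescent libraries, so its log2 difference of -2.42 is given as a description. The endothelin receptors EDNRA and EDNRB had 1 and 3 reads in the 12 libraries. Of 6 peptide substrates above the filter, 3 were called lower, beside 11.8% of all genes. Another, NPPC, was higher but passed the filter only through its senescent libraries. Glucagon (GCG) fell by 1.30 on the log2 scale (adjusted p = 4.21e-05), neuropeptide Y (NPY) by 1.46 (adjusted p = 1.11e-05) and somatostatin (SST) by 0.64 (adjusted p = 4.48e-04). All 3 fell more in batch A than in batch B, with interaction adjusted p of 6.81e-06 for GCG, 1.50e-04 for NPY and 7.47e-04 for SST. The natriuretic peptide NPPC, a substrate of neprilysin, averaged 0.745 ± 1.25 in non-senescent and 10.5 ± 3.07 in senescent libraries (SD, n = 6 each), from 72 reads in all. As a description, its log2 difference was 2.93, and the batches gave 2.96 (A) and 2.91 (B).

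Among the receptors of these peptides, 1 of 5 tested was called higher and 2 lower, beside 11.6% and 11.8% of all genes. The receptor of the incretin GIP (GIPR) rose by 1.18 ± 0.17 (SE, log2, adjusted p = 2.48e-05), the natriuretic peptide receptor NPR2 fell by 0.65 (adjusted p = 0.0112) and the VIP receptor VIPR1 fell by 1.23 (adjusted p = 0.00275). The GLP1R row held 3 reads in the 12 libraries. Around DPP6, the pore subunits of the Kv4 channel moved in opposite directions: KCND1 rose from 31.0 ± 7.23 to 80.2 ± 10.7 (SD, n = 6 each, log2 difference 1.37, adjusted p = 1.31e-05) and KCND3 fell from 408 ± 70.0 to 76.6 ± 22.0 (log2 difference -2.43, adjusted p = 5.07e-09). KCND2 had 11 reads in all.

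**Figure D5:**
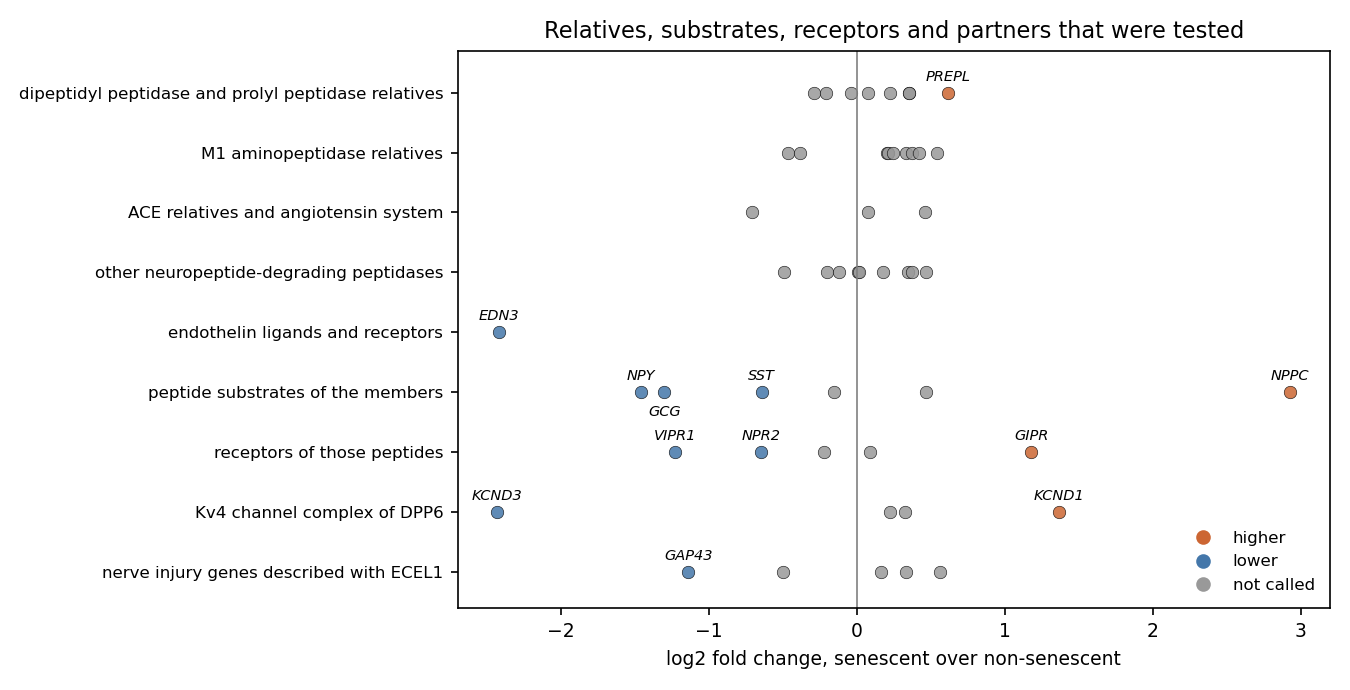
Log2 fold change of senescent over non-senescent cells (x axis) for the tested genes of 9 lists around the members (y axis), 1 point per gene, in orange where called higher, in blue where called lower and in grey where not called. The first 4 lists hold 1 called gene, PREPL. KCND1 (1.37) and KCND3 (-2.43) lie on opposite sides of 0, and NPPC (2.93) and EDN3 (-2.42) passed the filter only through the group in which they are high.

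ECEL1 is a nerve injury gene, so the genes it is described with there were read as well. None of the 5 tested was called higher, by limma, edgeR or DESeq2, beside 11.6% of all genes in limma. At an unadjusted p under 0.05 in limma, 1 was higher. That gene, STAT3, had a log2 difference of 0.56 ± 0.10 (SE, adjusted p = 1.73e-04), so it passed the adjusted p and stayed under the fold of 1.5. GAP43, the growth cone protein of regrowing axons, was called lower, from 111 ± 58.5 to 46.6 ± 21.5 (SD, n = 6 each, log2 difference -1.14, adjusted p = 2.92e-04). ATF3 had a log2 difference of -0.50 (adjusted p = 0.300) and SOX11 of 0.16 (adjusted p = 0.277). JUN, at 0.33 over both batches (adjusted p = 0.332), had 1.66 in batch A and -0.33 in batch B (interaction adjusted p = 5.33e-04). The summed neuron and glia markers ranged from 357 to 483 in non-senescent and from 200 to 259 in senescent libraries. Of these markers 2 were tested and both were called lower (RBFOX3 and GAP43), beside 11.8% of all genes. GAP43 is the same gene as in the nerve injury list above. S100B and SOX10 were at 0 in all 12.

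Markers of other cell types were read beside the members. Summed endothelial markers ranged from 4.77 to 24.8 normalised read counts in non-senescent and from 3.74 to 14.5 in senescent libraries, with VWF and CLDN5 at 0 throughout. Summed fibroblast markers ranged from 17.8 to 126 and from 13.9 to 54.9, with PDGFRB at 0. Summed immune markers ranged from 23.0 to 51.1 and from 18.0 to 40.9, with CD3E at 0. PTPRC averaged 13.5 ± 8.58 in non-senescent and 3.26 ± 1.25 in senescent libraries (SD, n = 6 each) and passed the filter only through the former. Of the 5 endothelial genes 1 was tested and of the 6 fibroblast genes 2, and none of these 3 was called by limma, edgeR or DESeq2 or had an unadjusted p under 0.05 in limma. Summed duct markers ranged from 242 to 379 in non-senescent and from 79.9 to 160 in senescent libraries, and summed acinar markers from 33.9 to 58.4 and from 144 to 251. Both sums were mostly 1 gene, the only 1 of 5 listed that was tested: the duct marker KRT19 was lower (log2 difference -1.35) and the acinar marker CPA1 higher (2.25). All libraries are of 1 cultured line, and a relation of these markers to the DPP4 and MME differences was not tested.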

How the data were processed

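RNA of 12 EndoC-βH3 samples was read by CEL-seq, and the labels gave group, batch and replicate of each. The members and gene lists were chosen with earlier results of these data known. Named were all 9 members, the called genes of the lists (at most 4 per list by size of change) and the 5 genes most like ECEL1, with further list genes chosen after their values were seen.

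The authors trimmed reads with Cutadapt and quantified them with Salmon 0.13.1 on GRCh38. The deposited values are a signal, reads per gene divided by a DESeq2 size factor per sample, called normalised read counts here. The deposited log2 fold changes with their errors, the test statistic (a score) and the p-values are the authors' DESeq2 results and were not used. Annotation, strand setting and any use of molecular identifiers are not given in the sources used here, so counting intervals and floors cover counting error only, and reads of opposite-strand genes over ECE1, MME, DPP4, DPP6 and ENPEP and of a read-through gene over ACE may be included. Salmon shares reads among similar transcripts, so ECEL1 and ECEL1P2 are uncertain where they match.

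Whole reads were recovered from the value steps for 100% of 196021 non-zero values (tolerance 0.001 reads). limma 3.58.1 (R 4.3.3, trend) was fitted to log2(normalised read count + 1) with batch and group for 13847 genes with a mean of at least 5, with Benjamini-Hochberg adjustment over all of them. This scale understates changes of low genes. Calls needed an adjusted p under 0.1 and a fold over 1.5. Batch differences were the interaction term at an adjusted p under 0.1. Tests were two-sided and the script was tested on simulated data. No 2 libraries agreed within sampling noise. Alternatives were other pseudocounts, filters and scalings, no batch term, a replicate block, no trend, each batch alone, each library left out, and edgeR 4.0.16 and DESeq2 1.42.0 on the recovered reads. Positions came from GENCODE v44 on GRCh38, where all 9 members matched by symbol.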

Additional observations from a re-analysis of the deposited data

Results flagged for a closer look

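The lowest non-senescent MME value, 52.3 normalised read counts in library B2, stood apart from the other 5 (84.8 to 103) by a Dixon test at the 95% level. MME also differed between the batches, with a batch B minus batch A difference of 1.14 in log2 units (interaction adjusted p = 0.0894). The highest senescent ENPEP value, 0.604, stood apart by the Dixon test because it was 1 read beside 5 libraries at 0. Chance flags about 1 in 20 groups by the Dixon test where the values are normal and from 1 population. The groups here pool batches A and B, and ENPEP is near 0, so that rate need not hold for them.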

How the results depend on the processing

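DPP4 kept its call under each of 13 alternatives (tools, scalings, filters, batches alone) and with each of the 12 libraries left out (log2 difference 0.70 to 1.75). Without the batch term DPP4 kept it only narrowly, with an adjusted p of 0.0966 from limma. ECE1 and DPP6 kept their direction and stayed uncalled throughout (0.26 to 0.49 and 0.21 to 0.48), although without the batch term ECE1 had an adjusted p of 0.491. Members called higher numbered 2, with MME added, in batch B alone, and 1 to 2 with a library left out, and members called lower numbered 0 throughout. Members with a batch difference numbered 0 with TMM factors and without a filter. Genes called higher in the whole table fell to 1037 without the batch term (1106 lower), and equal library totals gave 1225 higher and 2092 lower. MME reversed to -0.25 in batch A alone. ACE, near 0, reversed to -0.066 in batch A alone, to -0.10 at equal library totals, and with a library left out to -0.02, -0.02, -0.02, -0.04 and -0.049 (range -0.049 to 0.067). The size of the ECEL1 difference followed the pseudocount, with 5.75 at 0.5 and 2.91 at 8, and was 6.71 with edgeR and 6.65 with DESeq2. With the pseudogene reads added, an alternative chosen after seeing the data, it was 5.41. Same-numbered libraries did not deviate together (r from -0.05 to 0.02), and with the replicate block 1 member was called higher, 0 lower, and 1591 and 1620 genes in all against 1605 and 1632. The depth limits ECEL1 in controls, ENPEP and ANPEP. For ECE2, listed at 0 throughout, whether its row could receive reads was not tested.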
